A study of Mus musculus with 24 samples.

Results

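The genes described here are the 44 mRNAs of a fixed list of DNA replication licensing and fork genes. They were taken from the list by symbol, with the rule that each reach 1 TPM in at least 3 of 24 libraries, and all 44 did so in 24 of 24. TPM is a transcript's length-corrected share of all transcripts of a library, summed here per gene. The table held 28328 genes, of which 12581 passed the same filter and were tested. The cells were LLC1, a mouse cell line from Lewis lung carcinoma. Control cells received only the solvent, 0.1% DMSO, and are called untreated here. Chemotherapy was cisplatin at 2.5 µM plus pemetrexed at 2.5 µM, trametinib was given at 10 nM, and the combination held all 3 drugs. RNA was taken after 6 h or 24 h, which gives 8 groups of 3 libraries. LLC1 is a single line. Whether the 3 libraries of a group came from separate cultures is not stated in the labels, and the p-values cover the variation among libraries alone, part or all of which can be technical.

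A replication origin is licensed in G1, when the origin recognition complex (ORC) with Cdc6 and Cdt1 loads the MCM helicase, a ring of Mcm2 to Mcm7, onto DNA. At the start of S phase the kinase Cdc7 with its activator Dbf4 allows Cdc45 and the GINS complex to join the ring and turn it into a working helicase. Behind it the polymerases copy both strands, held by the sliding clamp PCNA, while RPA coats the exposed single strand and Fen1 and Lig1 join Okazaki fragments. Many of these genes are known targets of E2F transcription factors, which raise their mRNA as cells enter S phase. Cisplatin crosslinks DNA, trametinib blocks MEK, the kinase that activates ERK, and pemetrexed is an antifolate that starves cells of nucleotides.

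Because the members were read together as a group of S phase genes, their start sites were searched for the E2F site, spelled TTTCCCGC, TTTCGCGC, TTTGCCGC or TTTGGCGC on either strand. The windows, from RefSeq on GRCm38.p6, ran from 250 bases before to 50 bases after each start, and 36 of the 44 members had a window. At least 1 of these spellings lay in the windows of 16 of 36 members, 44.4%, against 2.26% of all 32851 windows of that length and 4.85% of the 9150 tested genes that had a window. The CCAAT box (CCAAT, either strand, which can overlap an E2F spelling only at its ends) lay in 22 of 36 members, 61.1%, against 43.8% of the tested genes. The stretches below carry E2F spellings upstream of the start in members of several roles, and capitals mark the matched letters, read 5′ to 3′ on the strand of the gene.
Cdc6, chr11:98907983-98908050, plus strand: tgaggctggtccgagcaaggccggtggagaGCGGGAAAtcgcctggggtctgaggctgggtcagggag
Mcm5, chr8:75109326-75109397, plus strand: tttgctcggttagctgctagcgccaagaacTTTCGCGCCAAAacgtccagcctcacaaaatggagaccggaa
Mcm6, chr1:128359774-128359845, minus strand: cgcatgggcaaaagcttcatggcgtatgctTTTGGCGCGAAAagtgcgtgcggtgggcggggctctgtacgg
Pola1, chrX:93632256-93632323, minus strand: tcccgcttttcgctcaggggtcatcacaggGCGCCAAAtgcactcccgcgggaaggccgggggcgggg
Uhrf1, chr17:56304098-56304165, plus strand: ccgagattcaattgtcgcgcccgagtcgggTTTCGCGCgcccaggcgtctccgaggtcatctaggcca
The match ended 131 bases upstream of the Cdc6 start and 178 bases upstream of the Uhrf1 start, counted from the RefSeq start of the window. In GENCODE M21 both genes also have transcripts that begin further upstream, so these stretches lie in an intron of those transcripts. The printed stretches are all among those with no base in an annotated exon. Those of Mcm7, Gins3, Rfc3, Orc1, Dnmt1 and Hells, not printed, held 31 to 68 such bases. In Mcm5 and Mcm6 a pair of spellings on opposite strands overlapped and shared 4 letters. A match is a run of letters and not a measured binding site. With chemotherapy at 24 h, the median log2 difference from untreated cells was 0.92 over the 16 members with an E2F spelling and 1.02 over the 20 without.

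The files give no read counts, so the depth behind a value is unknown. Libraries of a group correlated at 0.982 to 0.994 over genes on the log2 scale, and no pair held identical values. Of 6 carcinoma or mesenchymal markers 4 reached 1 TPM in at least 1 library. Among them Vim, a mesenchymal gene that is high in this line, was highest at 4478 TPM. Of 8 leukocyte markers, Cd3e and Adgre1 (T cells and macrophages) were at 0 in all libraries and 1, Itgax, passed 1 TPM, at up to 2.73 TPM. The 8 summed to 2.01 to 3.07 TPM per library. Of 3 red cell markers 2 passed 1 TPM in at least 1 library, with Hba-a1 highest at 2.3 TPM, and no lung epithelial marker reached 1 TPM. The sum of 4 fibroblast markers was 6.06 to 8.17 TPM in untreated libraries and 99.5 to 113 TPM with the combination at 24 h, most of it Dpt, and the sum of 4 endothelial markers was 7.1 to 12.9 TPM with chemotherapy at 24 h. The share of mitochondrially encoded mRNA was 7.98% to 9.4% at 6 h, 9.37% to 10.1% in untreated cells at 24 h and 10.8% to 12.3% in treated cells at 24 h. The part of these differences in the results below was not tested.

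Chemotherapy raised most replication mRNAs, modestly at 6 h and more at 24 h, alone or with trametinib, and trametinib alone raised fewer and by less. At 6 h, 32 of 44 members rose with chemotherapy and 1 fell (limma's moderated test, adjusted p under 0.05), with a median log2 difference of 0.35 in log2(TPM + 1). Over all 12581 genes tested 11.3% rose and 13.5% fell in that comparison, and the median gene moved by 0.01. At 24 h, 41 of 44 rose and 0 fell, with a median of 0.94, where 34.9% of all genes rose and 24.3% fell. In that comparison 42 members had an unadjusted p under 0.05. The series' own Bonferroni rule (adjusted p under 0.10) was used as an alternative. It is stricter in these comparisons and can only remove calls, so a 0 under it adds no support where the main count is 0. With trametinib alone 22 members rose and 3 fell at 6 h, with a median of 0.15. Over all genes 35.9% rose and 18.9% fell there, and the median gene moved by 0.10. Leaving out any 1 library of the 2 groups gave 16 to 20 rises and 2 to 4 falls among members. At 24 h trametinib gave 29 rises and 2 falls, with a median of 0.25, against 32.4% and 26.3% of all genes. The combination gave 39 rises and 1 fall at 6 h (median 0.57), where 38.6% of all genes rose and 19.8% fell. At 24 h it gave 40 rises and 0 falls (median 1.01), against 39.6% and 23.8% of all genes, and 41 members had an unadjusted p under 0.05.

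TPM was also rescaled by the median ratio of all genes. That moved the median gene from 0.11 to -0.00 for the combination at 6 h. The member counts there became 38 higher and 2 lower, against 30.5% and 29% of all genes. For the combination at 24 h the median gene moved from 0.10 to -0.01. There 39 members rose and 0 fell, with a median of 0.88, against 32.6% and 32% of all genes. Trametinib at 6 h was the comparison against untreated cells where the scale mattered most: 14 members rose and 5 fell after rescaling, with a median of 0.04, while 28.7% of all genes rose and 26.2% fell. The share of members that rose was thus near that of all genes on that scale. At 24 h trametinib gave 26 and 4 on that scale, against 30.3% and 30.3% of all genes. For chemotherapy the rescaled counts were 33 and 1 at 6 h, against 14% and 15%. They were 40 and 0 at 24 h, against 30.6% and 30.3%.

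**Figure D1:**
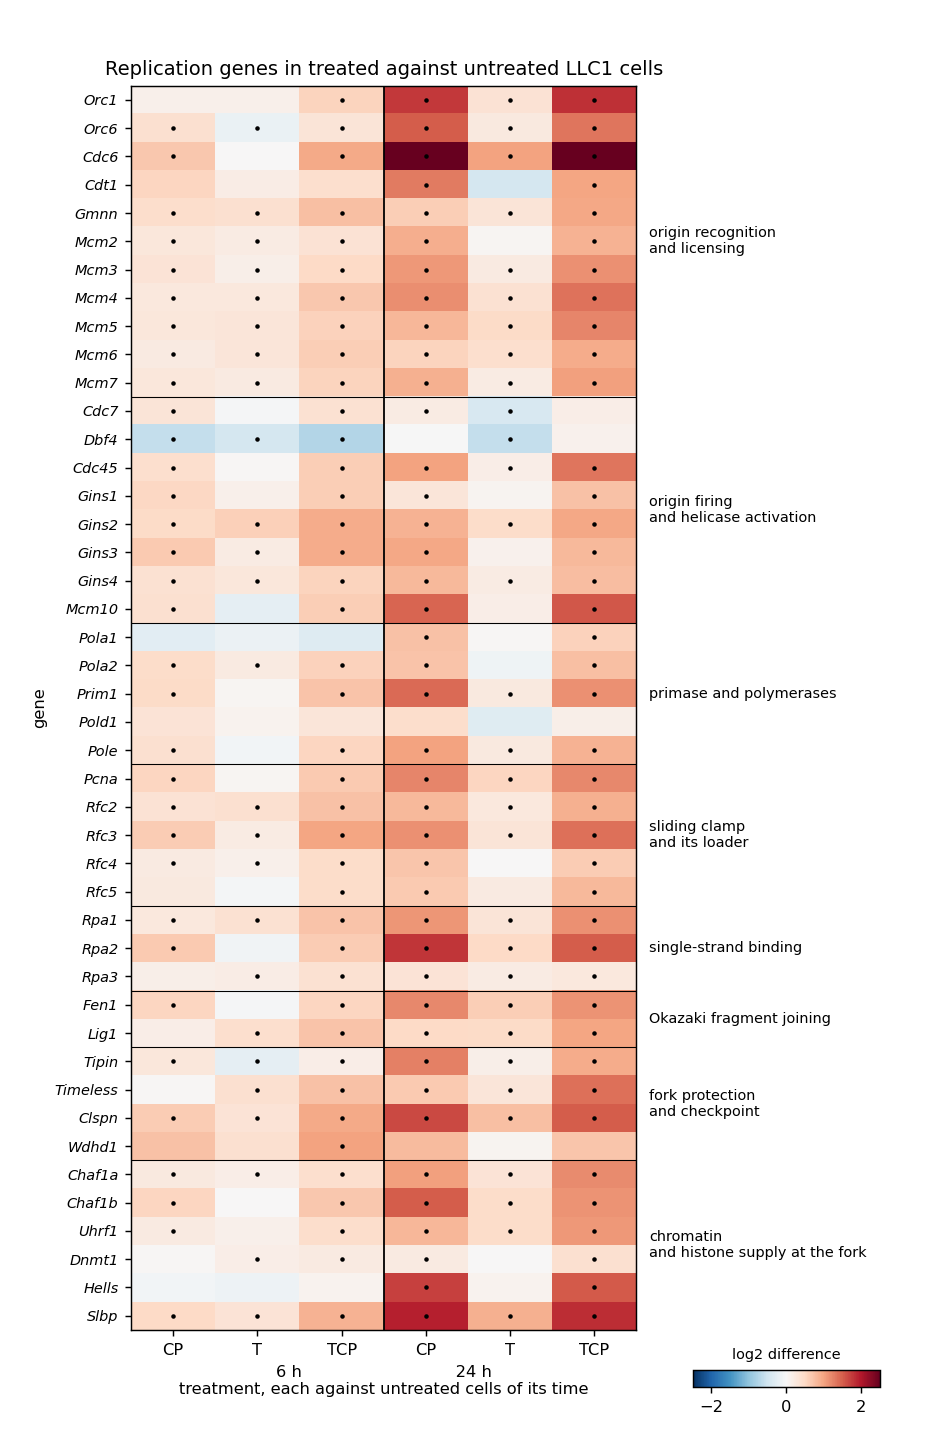
Log2 difference in TPM + 1 of each of the 44 members (rows, grouped by role) from untreated cells of the same time, for chemotherapy (CP), trametinib (T) and the combination (TCP) at 6 h and 24 h. A dot marks an adjusted p under 0.05 in limma. The CP and TCP columns at 24 h are the darkest, with Cdc6 at 2.53 and 2.50, and Dbf4 is below 0 in all 3 columns at 6 h.

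The untreated reference itself moved. Between 6 h and 24 h in untreated cells 34 of 44 members fell and 1 rose, with a median of -0.46, while 31.4% of all genes fell and 29.4% rose. The largest falls were in Cdc6 (-1.42 ± 0.078, adjusted p = 2.27e-11), Fen1 (-1.18 ± 0.071, adjusted p = 8e-11) and Orc1 (-1.14 ± 0.094, adjusted p = 4.64e-09), where each value is a log2 difference ± SE with n = 3 per group. Rpa3 was the single member that rose, by 0.15 ± 0.063 (adjusted p = 0.0466), and its adjusted p was 0.0527 to 0.238 without untreated replicate 2 or 3 of 6 h, or replicate 1 or 2 of 24 h. The summed level of the 44 members was 3465 to 3560 TPM per library in untreated cells at 6 h and 2410 to 2677 TPM at 24 h. With chemotherapy the sum was 4310 to 4531 TPM at 6 h and 5003 to 5216 TPM at 24 h. With trametinib it was 3816 to 4023 TPM and then 2916 to 3263 TPM, and with the combination 5045 to 5311 TPM and then 5230 to 5361 TPM. With every treatment the sums lay above those of untreated libraries of the same time, without overlap. Of the 8 groups, untreated cells at 24 h had the lowest mean level for 35 of 44 members, trametinib at 24 h for 5, and untreated cells at 6 h for 4. The highest mean was in the combination at 6 h for 15 members, chemotherapy at 24 h for 14 and the combination at 24 h for 13. Set against untreated cells of 6 h, 40 members had a higher mean with chemotherapy at 24 h (median 0.61), and 13 did with trametinib at 24 h (median -0.22). A difference at 24 h thus sets treated cells against a reference that was lower than at 6 h. In bulk RNA a change in the share of cells that hold an mRNA and a change in its amount per cell cannot be told apart.

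**Figure D2:**
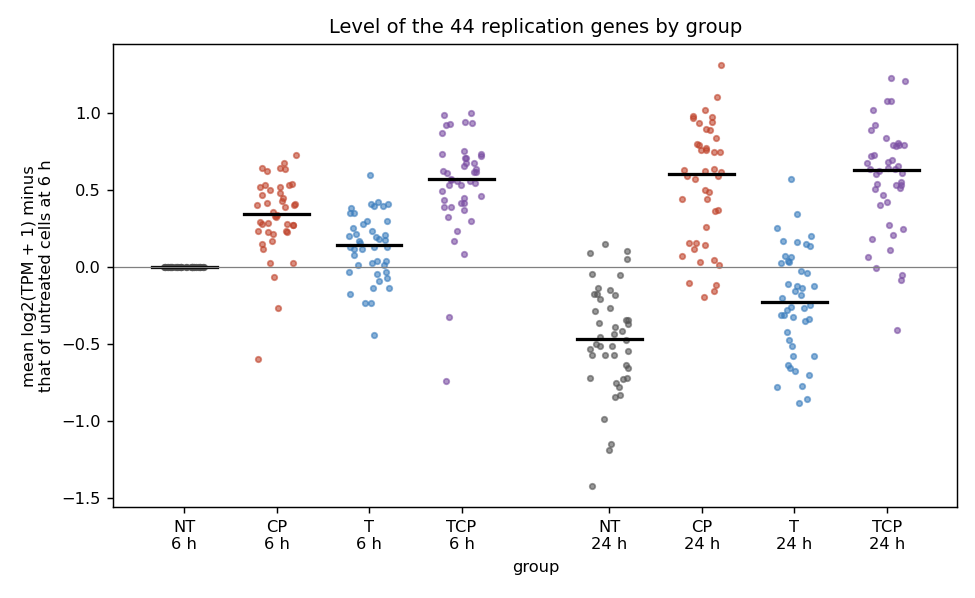
Mean log2(TPM + 1) of each of the 44 members in each of the 8 groups minus that of untreated cells at 6 h (vertical axis, log2), with 1 point per gene and a bar at the median. The medians are -0.46 in untreated cells and -0.22 with trametinib at 24 h, and 0.61 and 0.63 with chemotherapy and the combination.

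Of the 11 licensing genes, 9 rose with chemotherapy at 6 h and 11 at 24 h, with medians of 0.29 and 1.09. With trametinib 7 and 9 rose and 1, Orc6, fell at 6 h, and the combination raised 10 and 11. Cdc6 (chr11:98907801-98923940 in GRCm38) is the loader that brings the helicase ring to ORC. At 6 h, Cdc6 read 37.6, 36.1 and 37.1 TPM in untreated cells, 61.3, 55.2 and 62.9 TPM with chemotherapy, 34.5, 38.8 and 38.7 TPM with trametinib and 71.2, 69.3 and 74.8 TPM with the combination. Cdc6 at 24 h read 13.6, 14.4 and 11.6 TPM in untreated cells, 78.2, 85 and 79.2 TPM with chemotherapy, 30.6, 24.6 and 27.1 TPM with trametinib and 83.5, 76.7 and 77.6 TPM with the combination. The chemotherapy and combination libraries were above all untreated and trametinib libraries at both times. Trametinib libraries overlapped the untreated ones at 6 h and lay above them at 24 h. Cdc6 had the largest rise of any member with chemotherapy at 24 h, 2.53 ± 0.078 (SE, n = 3 per group), or 5.77-fold, with an adjusted p of 3.98e-15. The difference was 0.68 ± 0.078 at 6 h (adjusted p = 3.48e-06). With trametinib it was 0.013 ± 0.078 at 6 h (adjusted p = 0.903) and 1.00 ± 0.078 at 24 h (adjusted p = 1.65e-09). With the combination at 24 h it was 2.50 ± 0.078 (adjusted p = 2.83e-15).

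Orc1 (chr4:108579423-108614833) is the ORC subunit whose amount is known to vary over the cell cycle. At 6 h, Orc1 read 13.9, 15.8 and 17.1 TPM in untreated cells, 17.6, 15 and 18.6 TPM with chemotherapy, 15.2, 18.1 and 17.9 TPM with trametinib and 21.2, 23.3 and 25.5 TPM with the combination. Orc1 at 24 h read 6.49, 7.21 and 5.86 TPM in untreated cells, 24.8, 23.7 and 24.9 TPM with chemotherapy, 8.9, 7.91 and 9.25 TPM with trametinib and 24.6, 26.7 and 25.9 TPM with the combination. At 6 h only the combination libraries stood above the untreated ones, and at 24 h chemotherapy and combination libraries were at more than 3 times the untreated level. The log2 difference was 0.12 ± 0.094 with chemotherapy at 6 h (adjusted p = 0.4) and 1.76 ± 0.094 at 24 h (adjusted p = 8.51e-12). With trametinib it was 0.37 ± 0.094 at 24 h (adjusted p = 0.00236). Orc6, another ORC subunit, rose by 1.52 ± 0.061 with chemotherapy at 24 h and fell by 0.17 with trametinib at 6 h (adjusted p = 0.021).

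Cdt1 works with Cdc6 in loading, and Gmnn encodes geminin, the protein that binds and blocks Cdt1. At 6 h, Cdt1 read 40.2, 35.9 and 46.9 TPM in untreated cells, 81.9, 50 and 51.3 TPM with chemotherapy, 55, 48.2 and 37.2 TPM with trametinib and 43.7, 56.6 and 66.8 TPM with the combination. Cdt1 at 24 h read 26.1, 25.9 and 38.2 TPM in untreated cells, 85.9, 63.1 and 74.1 TPM with chemotherapy, 21.2, 22.5 and 21.2 TPM with trametinib and 49, 58.9 and 73 TPM with the combination. Cdt1 varied widely within groups, from 50 to 81.9 TPM with chemotherapy at 6 h. It rose with chemotherapy at 24 h by 1.29 ± 0.21 (adjusted p = 2.31e-05) and with the combination by 0.99 ± 0.21 (adjusted p = 0.000337). At 6 h the difference with chemotherapy was 0.53 ± 0.21 (adjusted p = 0.0654, and 0.0448 after rescaling), and with the combination 0.42 ± 0.21 (adjusted p = 0.0883, and 0.0316 without combination replicate 1). With trametinib at 24 h all 3 libraries were below the untreated ones, and the difference of -0.43 ± 0.21 had an adjusted p of 0.0798 (0.0461 after rescaling). At 6 h, Gmnn read 90.3, 89.1 and 90.3 TPM in untreated cells, 112, 124 and 129 TPM with chemotherapy, 120, 121 and 118 TPM with trametinib and 156, 151 and 151 TPM with the combination. Gmnn at 24 h read 79, 84.3 and 75.7 TPM in untreated cells, 120, 127 and 120 TPM with chemotherapy, 107, 95.1 and 95.9 TPM with trametinib and 160, 153 and 157 TPM with the combination. All treated Gmnn libraries were above all untreated libraries of their time, and the combination was highest at both times. Gmnn rose by 0.43 ± 0.052, 0.41 ± 0.052 and 0.76 ± 0.052 with chemotherapy, trametinib and the combination at 6 h. At 24 h it rose by 0.62 ± 0.052, 0.32 ± 0.052 and 0.97 ± 0.052, with adjusted p of at most 3.28e-05.

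All 6 subunits of the MCM ring rose with chemotherapy and with the combination at both times, with medians of 0.28 and 0.57 at 6 h and 0.89 and 1.08 at 24 h. With trametinib all 6 rose at 6 h (median 0.25) and 5 of 6 at 24 h (median 0.31). At 6 h, Mcm5 read 123, 126 and 125 TPM in untreated cells, 158, 151 and 150 TPM with chemotherapy, 156, 160 and 147 TPM with trametinib and 180, 187 and 192 TPM with the combination. Mcm5 at 24 h read 62.2, 65.7 and 59.7 TPM in untreated cells, 116, 105 and 115 TPM with chemotherapy, 92.4, 83.1 and 86.9 TPM with trametinib and 139, 148 and 159 TPM with the combination. Every treated Mcm5 library was above every untreated library of its time, and every treated group was lower at 24 h than at 6 h. Mcm5 rose with chemotherapy by 0.83 ± 0.054 at 24 h (adjusted p = 1.44e-10) and with trametinib by 0.48 ± 0.054 (adjusted p = 3.02e-07). At 6 h, Mcm2 read 85.1, 82.2 and 87.1 TPM in untreated cells, 119, 97.2 and 98 TPM with chemotherapy, 102, 99.5 and 91.2 TPM with trametinib and 102, 112 and 117 TPM with the combination. Mcm2 at 24 h read 50.1, 49.1 and 50.9 TPM in untreated cells, 102, 88.4 and 94.3 TPM with chemotherapy, 54.5, 51.5 and 49.9 TPM with trametinib and 82, 93 and 101 TPM with the combination. At 24 h the trametinib libraries of Mcm2 overlapped the untreated ones, and the difference was 0.05 ± 0.08 (adjusted p = 0.597). With chemotherapy Mcm2 rose by 0.91 ± 0.08 at 24 h (adjusted p = 1.09e-08). Its 6 h values were less firm. The chemotherapy difference was 0.29 ± 0.08 (adjusted p = 0.0111), and 0.20 with an adjusted p of 0.0665 without chemotherapy replicate 1. The trametinib difference was 0.20 ± 0.08 (adjusted p = 0.0439), with an adjusted p of 0.0576 to 0.136 without any of the 3 untreated libraries or trametinib replicate 1 or 2, and 0.286 after rescaling. The other 4 subunits rose with chemotherapy at 24 h by 0.55 (Mcm6) to 1.16 (Mcm4). On the TPM scale, which allows levels of genes to be compared, the 6 means ran from 84.8 TPM (Mcm2) to 209 TPM (Mcm3) in untreated cells at 6 h. With chemotherapy at 24 h they ran from 95.1 TPM (Mcm2) to 316 TPM (Mcm7).

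**Figure D3:**
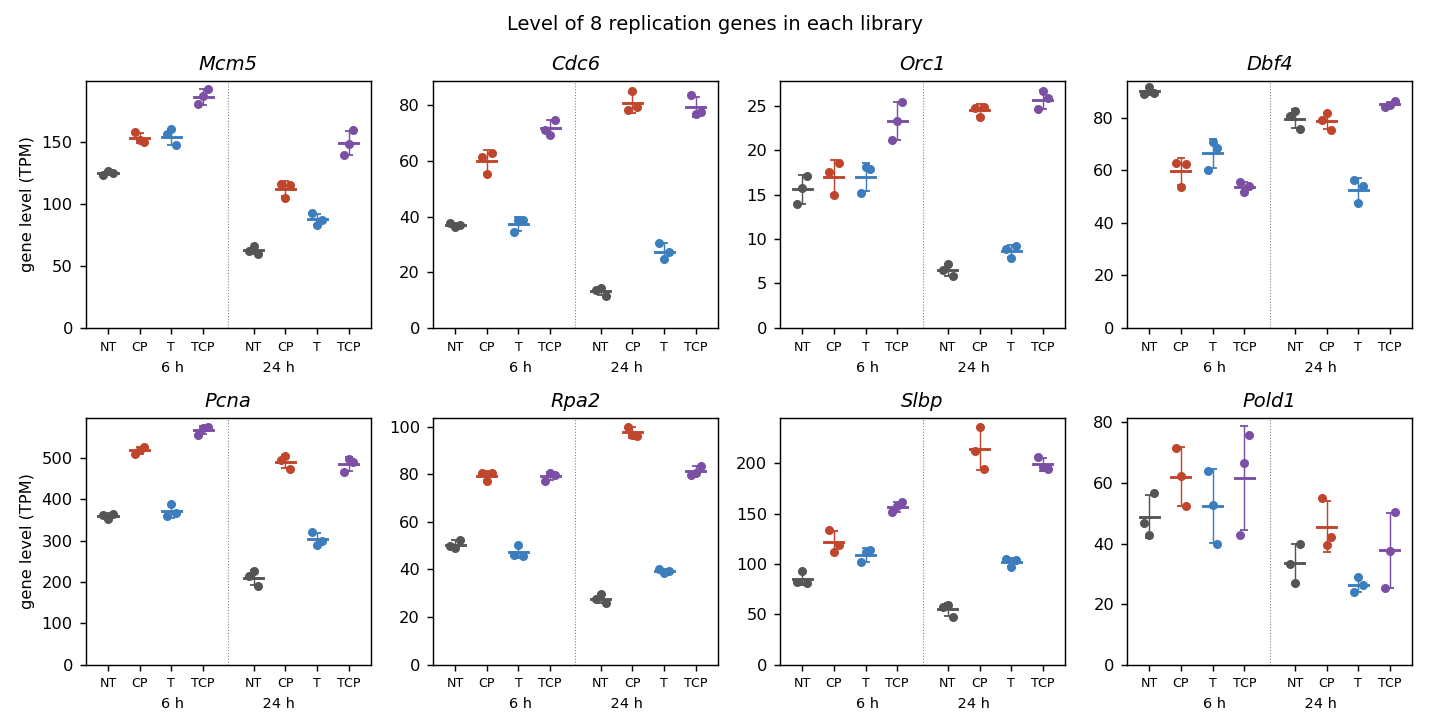
Gene level in TPM (vertical axis, from 0) of 8 members in each of the 24 libraries, by treatment at 6 h and 24 h. Points are libraries, horizontal bars are means and vertical bars are SD (n = 3); Cdc6 and Orc1 in untreated cells fall from 36.9 to 13.2 and from 15.6 to 6.52 TPM between the times, while Pold1 libraries of a group spread widely.

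Among the genes that fire the origin, Dbf4 moved against the rest at 6 h with chemotherapy and with the combination. With chemotherapy 7 of 8 rose and 1, Dbf4, fell at 6 h, and 7 rose and 0 fell at 24 h. Trametinib raised 3 of 8 and lowered 1 at 6 h, and raised 3 and lowered 2 at 24 h. Dbf4 (chr5:8396973-8422716) encodes the activating subunit of the kinase Cdc7. At 6 h, Dbf4 read 89, 91.7 and 89.5 TPM in untreated cells, 62.6, 53.6 and 62.2 TPM with chemotherapy, 60.1, 70.7 and 68.4 TPM with trametinib and 55.4, 51.7 and 54 TPM with the combination. Dbf4 at 24 h read 80.6, 82.5 and 75.6 TPM in untreated cells, 78.9, 81.8 and 75.4 TPM with chemotherapy, 56.2, 47.5 and 54 TPM with trametinib and 84.1, 84.8 and 86.2 TPM with the combination. All treated libraries were below all untreated ones at 6 h, while at 24 h only the trametinib libraries were. Dbf4 fell at 6 h by 0.59 ± 0.068 with chemotherapy (adjusted p = 3.44e-06), 0.44 ± 0.068 with trametinib (adjusted p = 1.98e-05) and 0.74 ± 0.068 with the combination (adjusted p = 1.9e-08). At 24 h the differences were -0.02 with chemotherapy (adjusted p = 0.861), -0.59 with trametinib (adjusted p = 3.75e-07) and 0.10 with the combination (adjusted p = 0.233).

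At 6 h, Cdc7 read 23.8, 24.3 and 23.5 TPM in untreated cells, 30.4, 28.1 and 32.1 TPM with chemotherapy, 20.3, 27 and 23.1 TPM with trametinib and 31.9, 30.6 and 32.4 TPM with the combination. Cdc7 at 24 h read 21.6, 21.8 and 19.8 TPM in untreated cells, 24.1, 24.9 and 24.4 TPM with chemotherapy, 16.6, 14.3 and 16.3 TPM with trametinib and 23.4, 24.6 and 23.3 TPM with the combination. The kinase subunit itself thus read highest with chemotherapy and the combination at 6 h and lowest with trametinib at 24 h, where it fell by 0.40 ± 0.076 (adjusted p = 0.000142). Chemotherapy raised Cdc7 by 0.33 ± 0.076 at 6 h (adjusted p = 0.00355). At 24 h the difference was 0.21 ± 0.076 (adjusted p = 0.0222), with an adjusted p of 0.0975 without untreated replicate 3, 0.0597 without chemotherapy replicate 2 and 0.0743 after rescaling. Over protein-coding transcripts alone it was 0.46 (adjusted p = 1.39e-05).

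Cdc45 and GINS are the helicase's activating partners. At 6 h, Cdc45 read 57.2, 59.3 and 54.8 TPM in untreated cells, 73.4, 77.4 and 78.8 TPM with chemotherapy, 58.1, 61.1 and 56 TPM with trametinib and 86.4, 85.5 and 91.8 TPM with the combination. Cdc45 at 24 h read 45.4, 43.5 and 39.2 TPM in untreated cells, 86.4, 89.7 and 84.4 TPM with chemotherapy, 48.9, 44.2 and 50.1 TPM with trametinib and 110, 109 and 109 TPM with the combination. Chemotherapy and combination libraries of Cdc45 were above the untreated and trametinib libraries at both times. Cdc45 rose by 0.42 ± 0.055 at 6 h and 1.01 ± 0.055 at 24 h with chemotherapy, and by 1.34 ± 0.055 with the combination at 24 h (adjusted p = 1.31e-13). With trametinib at 24 h the libraries overlapped the untreated ones. That difference of 0.16 ± 0.055 had an adjusted p of 0.0207, and of 0.0713 to 0.148 without untreated replicate 3, trametinib replicate 1 or trametinib replicate 3. At 6 h, Gins1 read 28.6, 25.2 and 27.3 TPM in untreated cells, 41, 39 and 37.5 TPM with chemotherapy, 30.5, 30.3 and 27.7 TPM with trametinib and 40.4, 45 and 41.1 TPM with the combination. Gins1 at 24 h read 20.9, 22.9 and 23.3 TPM in untreated cells, 27.3, 29.1 and 27.3 TPM with chemotherapy, 25.2, 22.4 and 22.6 TPM with trametinib and 35, 39.2 and 39.4 TPM with the combination. In Gins1, a GINS subunit, chemotherapy libraries stood at a higher level at 6 h than at 24 h. The rise with chemotherapy was 0.52 ± 0.065 at 6 h (adjusted p = 9.87e-06) and 0.31 ± 0.065 at 24 h (adjusted p = 0.000436). With the combination it was 0.62 ± 0.065 and 0.73 ± 0.065. Gins2 had the largest rise of any member with trametinib at 6 h, 0.60 ± 0.094 (adjusted p = 2.05e-05), from 40.7, 48.5 and 39.1 TPM to 71.8, 60.2 and 63.8 TPM, with no overlap. Its protein-coding transcript made up only 3.28% of its TPM, so that the value is mainly of transcripts annotated as retained intron or processed. Mcm10, which helps to activate the helicase, rose by 0.40 ± 0.12 and 1.45 ± 0.12 with chemotherapy at 6 h and 24 h. Protein-coding transcripts held 48.6% of its TPM.

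The polymerase genes rose less evenly. With chemotherapy 3 of 5 rose at 6 h and 4 of 5 at 24 h, and with trametinib 1 and 2 did. Pola1 encodes the catalytic subunit of polymerase alpha, which with primase starts each new strand. At 6 h, Pola1 read 34.4, 35.9 and 37.8 TPM in untreated cells, 29, 32.6 and 28 TPM with chemotherapy, 27.5, 31 and 41 TPM with trametinib and 29.3, 26.7 and 30 TPM with the combination. Pola1 at 24 h read 28.6, 30.8 and 24.5 TPM in untreated cells, 45.3, 36.9 and 61.4 TPM with chemotherapy, 30.1, 26.5 and 28.7 TPM with trametinib and 43.4, 39.5 and 42.4 TPM with the combination. At 6 h chemotherapy and combination libraries lay below the untreated ones, and at 24 h above them. The difference with chemotherapy was -0.26 ± 0.14 at 6 h (adjusted p = 0.193, and 0.0184 over protein-coding transcripts) and 0.73 ± 0.14 at 24 h (adjusted p = 0.000213). The combination gave -0.32 ± 0.14 at 6 h (adjusted p = 0.0604, and 0.00859 after rescaling). Over protein-coding transcripts alone that difference was 0.032 and did not pass the test. The coding transcript Pola1-201 read 22.9, 24 and 23.2 TPM in untreated cells at 6 h and 24.2, 21.4 and 26.4 TPM with the combination. The processed, noncoding Pola1-202 read 11.2, 11.5 and 14.3 TPM and then 4.96, 4.53 and 3.33 TPM, so that the 6 h difference with the combination lay in that transcript. Much of the 24 h rise lay in Pola1-202, a 690-base transcript annotated as processed, not coding. That transcript read 3.88, 3.86 and 3.41 TPM in untreated cells and 18, 7.78 and 33.8 TPM with chemotherapy. The coding transcript Pola1-201 read 24.1, 25.7 and 20.6 TPM and then 26.9, 27.9 and 27.2 TPM. Over protein-coding transcripts alone the 24 h difference was 0.22 (adjusted p = 0.0286). These transcripts were named after their values were seen.

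Pold1, the catalytic subunit of polymerase delta, passed no test in any of the 16 comparisons. Protein-coding transcripts held 48.7% of its TPM. At 6 h, Pold1 read 46.9, 42.8 and 56.7 TPM in untreated cells, 71.7, 62.3 and 52.3 TPM with chemotherapy, 64.1, 52.8 and 39.9 TPM with trametinib and 42.7, 66.6 and 75.9 TPM with the combination. Pold1 at 24 h read 33.3, 27.1 and 39.7 TPM in untreated cells, 55, 39.4 and 42.3 TPM with chemotherapy, 24, 29 and 26.2 TPM with trametinib and 25.3, 37.5 and 50.4 TPM with the combination. Libraries of a group spread widely, and the groups overlapped in every pair compared except untreated cells at 24 h against 6 h. The difference with chemotherapy was 0.44 ± 0.24 at 24 h (adjusted p = 0.116), with a 95% interval of -0.052 to 0.93. The 24 h differences of Pola1 and Pola2 lie within that interval, and those of Pole and Prim1 lie above it. Prim1, the catalytic primase subunit, rose by 0.48 ± 0.08 and 1.41 ± 0.08 with chemotherapy at 6 h and 24 h, and Pole, of polymerase epsilon, by 0.41 ± 0.081 and 1.01 ± 0.081. Pola2 rose by 0.45 ± 0.055 and 0.72 ± 0.055.

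All 5 clamp and clamp loader genes rose with chemotherapy at 24 h and with the combination at both times, and 4 of 5 rose with chemotherapy at 6 h. Pcna (chr2:132249162-132253314) encodes the ring that tethers polymerases to DNA. At 6 h, Pcna read 362, 353 and 365 TPM in untreated cells, 509, 520 and 526 TPM with chemotherapy, 359, 389 and 367 TPM with trametinib and 556, 572 and 574 TPM with the combination. Pcna at 24 h read 215, 226 and 190 TPM in untreated cells, 495, 504 and 473 TPM with chemotherapy, 321, 290 and 299 TPM with trametinib and 465, 498 and 491 TPM with the combination. Chemotherapy and combination libraries of Pcna were above all others at both times, and trametinib libraries overlapped the untreated ones at 6 h and lay between at 24 h. Pcna rose with chemotherapy by 0.53 ± 0.054 at 6 h (adjusted p = 8.75e-07) and 1.22 ± 0.054 at 24 h (adjusted p = 5.38e-13), and with trametinib at 24 h by 0.53 ± 0.054 (adjusted p = 6.95e-08). The mouse annotation lists a pair of Pcna pseudogenes, and how reads were divided between them and Pcna is uncertain. Rfc3 encodes a subunit of the clamp loader. At 6 h, Rfc3 read 37.7, 35.6 and 35.5 TPM in untreated cells, 52.2, 59.4 and 59.9 TPM with chemotherapy, 42.1, 41.8 and 41.7 TPM with trametinib and 78.4, 71.1 and 70.1 TPM with the combination. Rfc3 at 24 h read 26.5, 33.4 and 25.8 TPM in untreated cells, 62.7, 68.5 and 59.8 TPM with chemotherapy, 36.3, 33.9 and 36.9 TPM with trametinib and 77.1, 76.7 and 70.9 TPM with the combination. Rfc3 was highest in the combination at both times, with no overlap with any other group of that time. Its rise was 1.14 ± 0.079 with chemotherapy and 1.37 ± 0.079 with the combination at 24 h. The trametinib difference at 6 h was 0.20 ± 0.079 (adjusted p = 0.037), with an adjusted p of 0.0698 to 0.0959 without untreated replicate 2 or 3 or any trametinib library, and 0.369 after rescaling. Rfc2, Rfc4 and Rfc5 rose by 0.82, 0.69 and 0.65 with chemotherapy at 24 h. Protein-coding transcripts held only 38.9% of the TPM of Rfc5.

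The subunits of RPA, which coats single-stranded DNA, differed in size of change. At 6 h, Rpa2 read 49.8, 49 and 52.4 TPM in untreated cells, 80.6, 77.2 and 80.3 TPM with chemotherapy, 46.1, 50.4 and 45.7 TPM with trametinib and 77.1, 80.3 and 79.8 TPM with the combination. Rpa2 at 24 h read 27.7, 29.8 and 25.8 TPM in untreated cells, 100, 96.3 and 96.2 TPM with chemotherapy, 40.3, 38.4 and 39.2 TPM with trametinib and 79.6, 80.7 and 83.6 TPM with the combination. Chemotherapy and combination libraries were at one level at 6 h and at 24 h the chemotherapy libraries were above all others. Rpa2 rose with chemotherapy by 0.65 ± 0.048 at 6 h (adjusted p = 1.41e-08) and 1.78 ± 0.048 at 24 h (adjusted p = 8e-16). With trametinib the difference was -0.09 ± 0.048 at 6 h (adjusted p = 0.133). After rescaling that was -0.19 (adjusted p = 0.00164), and without trametinib replicate 2 it was -0.13 (adjusted p = 0.0345). At 24 h trametinib raised Rpa2 by 0.49 ± 0.048 (adjusted p = 4.62e-08). Rpa1 rose by 1.11 ± 0.048 and Rpa3 by 0.34 ± 0.063 with chemotherapy at 24 h.

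Fen1 trims the flap of an Okazaki fragment and Lig1 seals the nick that is left. At 6 h, Fen1 read 71.4, 70.5 and 73.9 TPM in untreated cells, 111, 99.8 and 103 TPM with chemotherapy, 72, 74.1 and 65.2 TPM with trametinib and 97.6, 105 and 113 TPM with the combination. Fen1 at 24 h read 31.6, 31.6 and 30.2 TPM in untreated cells, 76.6, 69.3 and 72.2 TPM with chemotherapy, 51.5, 45.8 and 46.6 TPM with trametinib and 61.9, 71.8 and 75.3 TPM with the combination. In untreated cells the mean of Fen1 went from 72 to 31.1 TPM between the times, and at 24 h every treated library was above every untreated one. It rose with chemotherapy by 0.54 ± 0.071 at 6 h (adjusted p = 1.84e-05) and 1.20 ± 0.071 at 24 h (adjusted p = 4.27e-11). Trametinib gave -0.03 ± 0.071 at 6 h (adjusted p = 0.731) and a rise of 0.61 ± 0.071 at 24 h (adjusted p = 5.07e-07). At 6 h, Lig1 read 74.7, 75.6 and 75.6 TPM in untreated cells, 84.4, 84.6 and 85.6 TPM with chemotherapy, 98.4, 105 and 100 TPM with trametinib and 131, 118 and 122 TPM with the combination. Lig1 at 24 h read 53.8, 63.2 and 50.6 TPM in untreated cells, 74.7, 87.4 and 76.5 TPM with chemotherapy, 88.2, 68.4 and 77.3 TPM with trametinib and 119, 109 and 106 TPM with the combination. Lig1 libraries with trametinib were above those of chemotherapy at 6 h, and the combination was highest at both times. Trametinib raised Lig1 by 0.42 ± 0.083 at 6 h (adjusted p = 0.000261) and 0.47 ± 0.083 at 24 h (adjusted p = 7.16e-05). The chemotherapy difference was 0.17 ± 0.083 at 6 h (adjusted p = 0.148, and 0.0284 when only the groups compared entered the model) and 0.50 ± 0.083 at 24 h (adjusted p = 3.49e-05).

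Clspn encodes claspin, which links the fork to the checkpoint kinase Chk1, and Timeless and Tipin form a complex that steadies the fork. At 6 h, Clspn read 27.6, 35.3 and 32.4 TPM in untreated cells, 48.4, 49.2 and 50.7 TPM with chemotherapy, 40, 43 and 38.9 TPM with trametinib and 65.2, 58.9 and 61.4 TPM with the combination. Clspn at 24 h read 20.6, 19.4 and 16.7 TPM in untreated cells, 60.7, 62.4 and 62.2 TPM with chemotherapy, 35, 30.6 and 31.2 TPM with trametinib and 61.3, 51.9 and 54.1 TPM with the combination. All treated Clspn libraries were above all untreated ones at both times. Clspn rose with chemotherapy by 0.63 ± 0.084 at 6 h and 1.66 ± 0.084 at 24 h (adjusted p = 3.66e-12), and with trametinib by 0.35 ± 0.084 and 0.75 ± 0.084 (adjusted p = 2.76e-07). At 6 h, Timeless read 33.2, 32.7 and 29.6 TPM in untreated cells, 32.8, 30.2 and 34.3 TPM with chemotherapy, 41.6, 43.9 and 41.2 TPM with trametinib and 55.8, 48.1 and 57.5 TPM with the combination. Timeless at 24 h read 30.2, 28.3 and 27.5 TPM in untreated cells, 42.4, 50.1 and 44.3 TPM with chemotherapy, 43.1, 31.6 and 33.8 TPM with trametinib and 76.2, 77.7 and 74.2 TPM with the combination. Chemotherapy libraries of Timeless overlapped the untreated ones at 6 h, and the combination was above every other group at both times. The chemotherapy difference was 0.03 ± 0.092 at 6 h (adjusted p = 0.875) and 0.65 ± 0.092 at 24 h (adjusted p = 5.52e-06), and that of the combination 1.38 ± 0.092 at 24 h (adjusted p = 1.29e-10). Trametinib gave 0.31 ± 0.092 at 24 h (adjusted p = 0.00637), with an adjusted p of 0.06 without trametinib replicate 1 and 0.18 over protein-coding transcripts. Tipin rose by 1.25 ± 0.06 with chemotherapy at 24 h and fell by 0.23 ± 0.06 with trametinib at 6 h (adjusted p = 0.00299).

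Wdhd1, which links the helicase to polymerase alpha, was the lowest member in level. At 6 h it read 4.86, 4.24 and 2.81 TPM in untreated cells, 11.1, 7.23 and 4.35 TPM with chemotherapy, 7.86, 4.66 and 4.53 TPM with trametinib and 10.8, 8.36 and 7.49 TPM with the combination. Its difference with the combination, 1.00 ± 0.35 (adjusted p = 0.0181), was the largest among members called in that comparison. It was 0.82 (adjusted p = 0.0819) without untreated replicate 3 and 0.86 (adjusted p = 0.0689) without combination replicate 1. In the other 15 comparisons it passed no test.

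The genes of chromatin and histone supply all rose with chemotherapy and the combination at 24 h, 6 of 6, with medians of 1.27 and 1.16. Slbp (chr5:33634952-33652574) encodes the protein that binds the stem-loop of histone mRNAs. At 6 h, Slbp read 81.9, 93 and 81.6 TPM in untreated cells, 134, 112 and 119 TPM with chemotherapy, 102, 112 and 114 TPM with trametinib and 152, 158 and 162 TPM with the combination. Slbp at 24 h read 57.3, 59.5 and 47.7 TPM in untreated cells, 212, 236 and 194 TPM with chemotherapy, 105, 97.1 and 104 TPM with trametinib and 206, 196 and 194 TPM with the combination. All treated Slbp libraries were above all untreated ones at both times, and in untreated cells the level fell between the times by 0.63. Slbp rose with chemotherapy by 0.50 ± 0.084 at 6 h and 1.95 ± 0.084 at 24 h (adjusted p = 4.21e-13), and with trametinib by 0.35 ± 0.084 and 0.89 ± 0.084 (adjusted p = 2.68e-08). Hells, a chromatin remodeler of the replication period, rose by 1.70 ± 0.14 at 24 h with chemotherapy (adjusted p = 2.92e-09), from 54, 51.9 and 44.9 TPM to 174, 162 and 160 TPM. At 6 h its difference was -0.06 (adjusted p = 0.784). Protein-coding transcripts held 57.7% of the TPM of Hells. Chaf1a and Chaf1b, subunits of the histone chaperone CAF-1, rose by 1.02 and 1.52.

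Uhrf1 and Dnmt1 copy DNA methylation onto the new strand, Uhrf1 by reading hemimethylated sites and Dnmt1 by methylating them. At 6 h, Uhrf1 read 159, 167 and 161 TPM in untreated cells, 200, 180 and 194 TPM with chemotherapy, 174, 193 and 169 TPM with trametinib and 206, 212 and 247 TPM with the combination. Uhrf1 at 24 h read 114, 110 and 104 TPM in untreated cells, 205, 179 and 204 TPM with chemotherapy, 157, 139 and 154 TPM with trametinib and 220, 237 and 241 TPM with the combination. Untreated libraries of Uhrf1 were below all treated ones at both times, though the trametinib difference at 6 h, 0.13 ± 0.073, did not pass the test (adjusted p = 0.134). The rise was 0.83 ± 0.073 with chemotherapy and 0.45 ± 0.073 with trametinib at 24 h. At 6 h the chemotherapy difference was 0.23 ± 0.073 (adjusted p = 0.0268), with an adjusted p of 0.0685 to 0.0879 without untreated or chemotherapy replicate 1 or 3. At 6 h, Dnmt1 read 92.9, 97.4 and 96.1 TPM in untreated cells, 105, 91.4 and 97.1 TPM with chemotherapy, 107, 110 and 104 TPM with trametinib and 110, 107 and 121 TPM with the combination. Dnmt1 at 24 h read 75.9, 76.6 and 73.3 TPM in untreated cells, 89.8, 83.3 and 91.4 TPM with chemotherapy, 78.6, 71.7 and 78 TPM with trametinib and 96.6, 101 and 102 TPM with the combination. Dnmt1 had the smallest chemotherapy difference of the 6 genes at 24 h. It was 0.03 ± 0.055 at 6 h (adjusted p = 0.729) and 0.22 ± 0.055 at 24 h (adjusted p = 0.0017). With trametinib it was 0.16 ± 0.055 at 6 h (adjusted p = 0.0182), with an adjusted p of 0.0696 without untreated replicate 1, 0.0684 without trametinib replicate 2 and 0.218 after rescaling. With the combination at 24 h it rose by 0.40 ± 0.055 (adjusted p = 2.71e-06).

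The next comparisons ask what each part of the combination added. At 6 h, adding trametinib to chemotherapy raised 26 of 44 members and lowered 0, with a median of 0.21, where 39.7% of all genes rose, 16.4% fell and the median gene moved by 0.13. After rescaling, 13 rose and 4 fell, the member median was 0.07, and 27.9% of all genes rose and 26.6% fell. On the original scale 27 members had an unadjusted p under 0.05. The largest rises were in Timeless (0.71 ± 0.092), Lig1 (0.54 ± 0.083) and Gins2 (0.46 ± 0.094). Over protein-coding transcripts, which hold 3.28% of its TPM, the Gins2 difference was -0.47 (adjusted p = 0.113 in limma). Adding chemotherapy to trametinib raised 36 members and lowered 1, with a median of 0.36, against 12.3% and 6.53% of all genes. Cdc6 (0.93 ± 0.078), Mcm10 (0.85 ± 0.12) and Rfc3 (0.79 ± 0.079) rose most, and Dbf4 fell by 0.30 ± 0.068 (adjusted p = 0.00413, and 0.0572 when only the groups compared entered the model).

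At 24 h, adding chemotherapy to trametinib raised 41 of 44 members and lowered 0 (median 0.74), against 31.4% and 18% of all genes. No member had a fall with an unadjusted p under 0.05. Cdc6 (1.50 ± 0.078), Orc1 (1.46 ± 0.094) and Hells (1.44 ± 0.14) rose most. Adding trametinib to chemotherapy gave 13 members higher and 6 lower, with a median of 0.00, where 30.3% of all genes rose and 23.2% fell. The share of members that rose was thus near that of all genes, and the share that fell was below it. Higher were Timeless (0.73 ± 0.092), Lig1 (0.48 ± 0.083) and Gins1 (0.42 ± 0.065) most of all. Over protein-coding transcripts, which hold 43.3% of its TPM, the Timeless difference was 0.39 (adjusted p = 0.031 in limma). Lower were Chaf1b (-0.38 ± 0.088), Tipin (-0.33 ± 0.06) and Rpa2 (-0.26 ± 0.048). Chaf1b read 50.7, 52.2 and 57 TPM with chemotherapy and 43.6, 37.3 and 41 TPM with the combination, with no overlap. The count of 6 lower members was 3 without chemotherapy replicate 2.

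The combination was also set against the sum of the log2 differences of its parts, which holds the untreated libraries in both. At 6 h 0 of 44 members were above the sum and 0 below it in limma, and 6 had an unadjusted p under 0.05. Over all genes 0.0874% were above and 0.00795% below. At 24 h 4 members were above the sum and 18 below it, with a median of -0.18, against 16.2% and 15.6% of all genes. The members furthest below were Cdc6 (-1.03 ± 0.11, adjusted p = 1.15e-06), Slbp (-0.99 ± 0.12, adjusted p = 4.03e-06) and Clspn (-0.89 ± 0.12, adjusted p = 1.24e-05). For Cdc6 the parts gave 2.53 and 1.00 while the combination gave 2.50, so that the combination stood at the level of chemotherapy alone. Dbf4 was furthest above, by 0.70 ± 0.10 (adjusted p = 1.8e-05): trametinib alone lowered it, and added to chemotherapy it gave 0.11 ± 0.068 (adjusted p = 0.181). Gins1 (0.36 ± 0.092, adjusted p = 0.00555) and Timeless (0.41 ± 0.13, adjusted p = 0.02) were also above. For Timeless the adjusted p was 0.052 to 0.0621 without untreated replicate 1, chemotherapy replicate 1 or trametinib replicate 2 or 3, and 0.611 over protein-coding transcripts. The fourth above was Cdc7, at 0.36 ± 0.11. Over protein-coding transcripts 2 members were above the sum and 17 below it, against 16.4% and 17.7% of all genes.

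**Figure D4:**
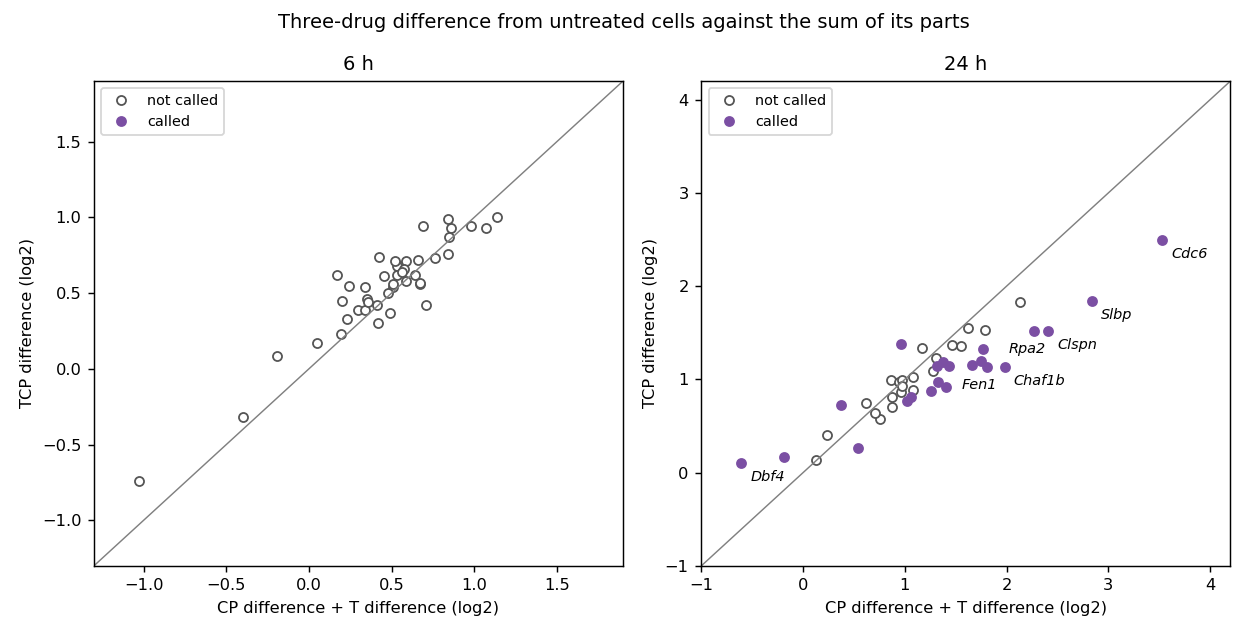
Log2 difference of the combination (TCP) from untreated cells against the sum of the differences of chemotherapy (CP) and trametinib (T), for the 44 members at 6 h and 24 h, with the line of equality. Filled points differ from the sum at an adjusted p under 0.05: 0 members at 6 h, and at 24 h 18 below the line, Cdc6 furthest, and 4 above it, Dbf4 furthest.

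The effect of each treatment was compared between the times as a difference of differences. The chemotherapy effect was larger at 24 h than at 6 h for 38 of 44 members and smaller for 0 in limma. The median was 0.60, and the shares of all genes were 28.3% and 16.7%. In limma 40 members had an unadjusted p under 0.05. Under the Bonferroni rule 22 were larger and 0 smaller, against 7.9% and 3.3% of all genes. The trametinib effect was higher at 24 h for 12 members and lower for 2 (median 0.12), against 15.9% and 22.3%. The combination effect was higher for 30 and lower for 0 in limma (median 0.48), against 25.3% and 24.3%. There 36 had an unadjusted p under 0.05, and the Bonferroni counts were 16 and 0, against 7.44% and 7.41%. These differences hold the fall of the untreated cells: the mean level with chemotherapy was itself higher at 24 h than at 6 h for 32 of 44 members, that with trametinib for 2 and that with the combination for 25. The mean level of Hells, whose chemotherapy effect grew by 1.76 ± 0.19, went from 81.4 ± 20.3 to 165 ± 7.91 TPM (SD, n = 3) between the times. That of Mcm5, whose effect grew by 0.54 ± 0.076, went from 153 ± 4.17 to 112 ± 6.02 TPM.

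The same model gave values for 42 other replication genes from a list of factors that work at origins and forks but are not members. With chemotherapy at 6 h 15 of 42 rose and 2 fell (median 0.08), and at 24 h 28 rose and 6 fell (median 0.34). The shares of all genes were 11.3% higher and 13.5% lower at 6 h, and 34.9% and 24.3% at 24 h. With trametinib 12 rose and 10 fell at 6 h, against 35.9% and 18.9% of all genes, and 14 rose and 13 fell at 24 h, against 32.4% and 26.3%. The 24 h counts with trametinib were thus near the share of all genes. With the combination 24 rose and 6 fell at 6 h, against 38.6% and 19.8% of all genes, and 24 and 7 did at 24 h, against 39.6% and 23.8%. Among these 42 genes are the remaining subunits of complexes to which members belong. With chemotherapy at 24 h Orc2 rose by 0.27 ± 0.10, Orc3 and Orc5 had differences of -0.45 ± 0.081 and -0.22 ± 0.067 and both fell, and Orc4, at -0.02, did not pass the test. These stand beside the rises of 1.76 in Orc1 and 1.52 in Orc6. The large clamp loader subunit Rfc1 rose by 1.15 ± 0.25 and the primase subunit Prim2 by 0.48 ± 0.063. Of the polymerase epsilon subunits Pole2, Pole3 and Pole4 rose by 0.33 ± 0.059, 0.71 ± 0.059 and 0.72 ± 0.075. Of the polymerase delta subunits Pold3 rose by 0.27 ± 0.10, Pold4 was at 0.22 ± 0.12 and did not pass, and Pold2 fell, at -0.37 ± 0.10 with chemotherapy and -1.07 ± 0.10 with the combination.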

How the data were processed

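RNA of LLC1 cells was sequenced as stranded poly(A) libraries, 24 in 8 groups of 3 taken from the labels. The values deposited by the authors are TPM for 82934 transcripts per library, made with bcl2fastq 2.17.1.14 and kallisto 0.45 on GRCm38 per the submitters' processing notes. Which transcript set they used is not stated in the labels. TPM keeps no depth, so precision rests on the 3 libraries per group. The series' design text names a count model with Bonferroni adjustment and a threshold of 0.10. Without read counts, limma on log2 values was used, and that threshold became an alternative.

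Transcript TPM were summed per gene with GENCODE M21 (79662 transcripts matched, in 28328 genes; 3272 did not match and held 4.45% to 5.98% of a library's TPM). The 12581 genes that reached 1 TPM in 3 or more libraries were tested on log2(TPM + 1), which understates changes of low genes. limma 3.58.1 in R 4.3.3 fitted 1 mean per group over all 24 libraries (16 residual degrees of freedom) with trended moderated variances. Benjamini-Hochberg adjustment of the two-sided p ran over the 12581 genes, and an adjusted p under 0.05 was called in 16 comparisons. A difference is log2 with its standard error, and verbs of change refer to called genes.

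The members, gene lists and markers were chosen with earlier results of these data known. A fixed panel of 21 members is given by library. To it were added the members with the largest called rise and fall against untreated cells, and in the other comparisons the 3 largest of each. The list of other replication genes held 43 symbols, and Chtf8, which covers more than a single gene record, was left out. A total of 11 members overlap another protein-coding gene, and 1 of them, Cdt1, overlaps one on the same strand, Gm20388. Steps were tested on simulated data, where limma called 0 of 12581 genes when none was changed. Libraries with the same replicate number did not vary together throughout, so the numbers were not used to pair them. Alternatives were another pseudocount (0.1), no filter, a mean of at least 5 TPM, rescaling by the median ratio, only the groups compared, the Bonferroni rule, protein-coding transcripts only, a replicate block and leaving out each library. Proteins were not used here, and 8 members had no promoter window.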

Additional observations from a re-analysis of the deposited data

Results flagged for a closer look

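The effects of treatment differed between 6 h and 24 h by a test of the difference itself, the contrast of the 2 times in limma. For chemotherapy 38 members had a higher effect at 24 h, led by Cdc6 (1.85), Hells (1.76) and Orc1 (1.65). For trametinib 12 had a higher and 2 a lower effect at 24 h. Cdc6 (0.99), Fen1 (0.64) and Rpa2 (0.58) led the higher ones, and Cdc7 (-0.37) and Pola2 (-0.32) were the lower ones. Over protein-coding transcripts the Cdc7 value was -0.20 (adjusted p = 0.12). For the combination 30 members had a higher effect at 24 h, led by Cdc6 (1.56), Hells (1.44) and Orc1 (1.28). All 3 contrasts hold the same untreated libraries, in which 34 of 44 members fell between the times, so the 3 sets of values are not independent of each other.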

How the results depend on the processing

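Against untreated cells, the members' direction on balance was the same under all alternatives run. Of 2468 pairs of a named gene result and an alternative, 2360 kept their side of the threshold, 94 lost a call and 13 gained one. A change of sign was counted only where either value was called, so the 2360 hold uncalled values that changed sign. Pola1 with the combination at 6 h, over protein-coding transcripts, is among them. The one reversal so counted was Gins2 with trametinib added to chemotherapy at 6 h. It was 0.46 over all transcripts and -0.47 (adjusted p = 0.113) over protein-coding transcripts, which hold 3.28% of its TPM. The Bonferroni rule calls fewer genes by construction. Under it, members higher and lower were 16 and 1 for chemotherapy at 6 h (all genes 1.86% and 2.64%). For trametinib they were 4 and 1 at 6 h (13.8% and 7.59%) and 12 and 1 at 24 h (13.8% and 11%). Trametinib added to chemotherapy gave 7 and 0 at 6 h (15.4% and 6.12%) and 5 and 0 at 24 h (11.7% and 8.34%). Chemotherapy added to trametinib gave 23 and 0 at 6 h (2.06% and 1.4%). Beyond the sum at 24 h they were 1 and 7 (3.65% and 2.88%). For the 3 effects at 24 h minus 6 h, 22, 4 and 16 were higher (7.9%, 3.65% and 7.44%). There 0, 0 and 0 were lower (3.3%, 5.55% and 7.41%). Untreated cells gave 0 and 21 (12.5% and 12.9%). The shares higher for trametinib at 6 h and for trametinib added to chemotherapy were near or below those of all genes. Rescaling by the median ratio gave 14 and 5 for trametinib at 6 h (all genes 28.7% and 26.2%) and 4 lower at 24 h (30.3%). It gave 2 lower for the combination at 6 h (29%) and 13 and 4 for trametinib added to chemotherapy at 6 h (27.9% and 26.6%). The chemotherapy effect at 24 h was smaller for 1 (22.7%). Protein-coding transcripts alone gave 2 lower for chemotherapy at 6 h (all genes 15.2%) and 1 lower for trametinib added to it (18.1%). They gave 2 above the sum at 24 h (16.4%) and 0 higher in untreated cells (29.9%). With only the groups compared, 2 were lower with chemotherapy (all genes 10.2%) and 2 with the combination (21.5%) at 6 h. The count lower was 0 for chemotherapy added to trametinib at 6 h (2.88%). It was 1 for the combination effect at 24 h minus 6 h (25.6%). In untreated cells 0 were higher (31.9%), as with no filter (0, against 18.1%). Leaving out 1 library gave 0 to 1 lower for trametinib added to chemotherapy at 6 h, 3 to 6 lower at 24 h, 0 to 1 smaller chemotherapy effects at 24 h and 0 to 1 higher in untreated cells. For these changes other than under the Bonferroni rule the cause was not tested. Replicate numbers did not pair the libraries: in no comparison did all 3 same-numbered pairs correlate over 0.1, and every library correlated best with its own number only for the combination against untreated cells at 24 h. With a replicate block, members higher were 32, 21 and 39 at 6 h and 42, 29 and 41 at 24 h for chemotherapy, trametinib and the combination. The shares of all genes were 10.7%, 35.2% and 38.2% at 6 h and 34.5%, 32% and 39.3% at 24 h. Below the sum at 24 h were 14 members, against 14.9% of all genes. TPM keeps no depth, so how far read number limits Wdhd1, Pold1 and Cdt1, the members that vary most within groups, cannot be read from these files.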

Other observations

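With chemotherapy the mean level was higher at 24 h than at 6 h for 32 of 44 members. The mean TPM of Hells went from 81.4 to 165, that of Slbp from 122 to 214 and that of Tipin from 155 to 251. Fen1 went from 105 to 72.7, Gins1 from 39.2 to 27.9 and Pold1 from 62.1 to 45.6. These 6 genes were chosen after their values were seen, and the step from 6 h to 24 h within chemotherapy was not tested. Most of the TPM of Gins2 lay outside its coding transcript: in untreated cells at 24 h its coding transcript Gins2-201 read 1.48 TPM and the retained-intron transcript Gins2-204 read 23.5 TPM, on a mean of 3 libraries.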
